A study of Mus musculus with 6 samples.

Results

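The genes examined were the nuclear-encoded subunits of the mitochondrial respiratory chain and of ATP synthase, with cytochrome c and close relatives, in injured and sham-operated mouse spinal cord. They were chosen by name: every gene in the deposited tables whose name starts with Nduf, Uqcr, Atp5, Cox4, Cox5, Cox6, Cox7 or Cox8, together with Sdha, Sdhb, Sdhc, Sdhd, Cycs and Cyc1, with names that hold -ps left out. The rule gave 98 of 36629 genes. By their known roles, 44 belong to complex I (36 subunits and 8 assembly factors of the Ndufaf series), 4 to complex II, 9 to complex III, 19 to complex IV and 17 to complex V, 1 is cytochrome c, and 4 are paralogs annotated as processed pseudogenes that were not placed (Cox6c2, Ndufa11b, Ndufb4c and Ndufs6b).

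The SCI (spinal cord injury) group, with 3 libraries, consisted of C57/BL6 mice aged 3 to 5 weeks whose cord was laid open by laminectomy (bone over the cord is taken away) at T9 and T10 and then crushed with a vascular clip of 60 g force for 5 seconds. The sham group (3 libraries) consisted of C57/BL6 mice of the same age with the laminectomy alone. Both groups were sampled 3 days after surgery from cord segments T8 to T12, and no genetic change or drug is named for either. RNA-seq was made from poly(A)-selected RNA of these whole pieces of tissue. The labels number 3 samples per group without saying that each came from 1 animal, so p-values measure the spread between these samples, which may be technical.

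The respiratory chain passes electrons from NADH (complex I) and from succinate (complex II) through ubiquinone to complex III, cytochrome c and complex IV, which reduces oxygen. Complexes I, III and IV pump protons across the inner mitochondrial membrane, and ATP synthase (complex V) uses the proton gradient to make ATP. All of these except complex II are mosaics of subunits encoded in the nucleus and in mitochondrial DNA, and neurons are known to rely heavily on them for ATP.

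Values are the authors' FPKM (fragments normalised for gene length and library size), so levels of different genes can be compared per length, and the read depth behind them is unknown. FPKM summed to 716215 to 734791 per library, and 16774 to 17202 genes reached 1 FPKM. Pearson's r between libraries, on log2(FPKM + 1) over all genes tested, was 0.971 to 0.985 within the SCI group, 0.987 within the sham group and 0.839 to 0.907 between groups. Haemoglobin genes held 0.656%, 6.16% and 0.211% of the FPKM in SCI replicates 1, 2 and 3, against 0.109% to 0.126% in the sham libraries. All 11 neuron markers and all 10 oligodendrocyte markers were expressed above the filter in the pieces of cord. The neuron markers summed to 2609, 1840 and 3190 FPKM in the SCI libraries, against 5699, 6513 and 5646 FPKM in the sham libraries. The 12 markers of microglia and macrophages summed to 1764, 2944 and 2095 FPKM in the SCI libraries, against 237, 192 and 237 FPKM in the sham libraries.

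Most respiratory chain genes were lower in the injured cord, by a modest amount. Of the 96 members that reached 1 FPKM in at least 3 libraries and were tested, 65 were lower in SCI (67.7%), 1 was higher (Atp5g2) and 30 did not pass the threshold, in limma with Benjamini-Hochberg adjustment over all 17435 genes tested (adjusted p under 0.05). Over all genes tested, 30.8% were called lower and 26.7% higher. The median log2 change of the members, SCI minus sham on log2(FPKM + 1), was −0.36 with quartiles of −0.49 and −0.24, beside a median of −0.08 and quartiles of −0.46 and 0.39 over all genes tested. The 65 members called lower had SCI means between 54.4% and 85.4% of their sham means, with a median of 73.8%. In 75 members all 3 SCI libraries lay below all 3 sham libraries, which was so for 36.9% of all genes tested, and in 1 member they lay above, which was so for 30.7%. In bulk tissue, fewer cells of a type and less RNA per cell cannot be told apart. Wherever none of the genes of a complex or list is reported as higher or lower, none was so at an unadjusted p under 0.05 in limma either.

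The members moved together between libraries as well as between groups. Their FPKM summed to 10774, 9386 and 11429 in SCI replicates 1, 2 and 3, against 13965, 13735 and 13247 in sham replicates 1, 2 and 3, and the SCI mean was 77.1% of the sham mean. SCI replicate 2, the library with the most haemoglobin and the least neuron marker signal, was the lowest of the SCI libraries in 92 of the 96 members (95.8%), against 9763 of the 17435 genes tested (56%). SCI replicate 3 was the highest of the SCI libraries in 73 members (76.0%), against 6534 of the 17435 genes tested (37.5%). Median-ratio scaling, a library-wide correction, divides SCI replicate 2 by 0.906 and the other libraries by 0.998 to 1.05. The ranks of the libraries were taken without it. Without SCI replicate 2, 62 members were lower and 2 higher, and the median log2 change was −0.28. The part of haemoglobin, of neuron markers and of phagocyte markers in the members' change was not tested.

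**Figure D1:**
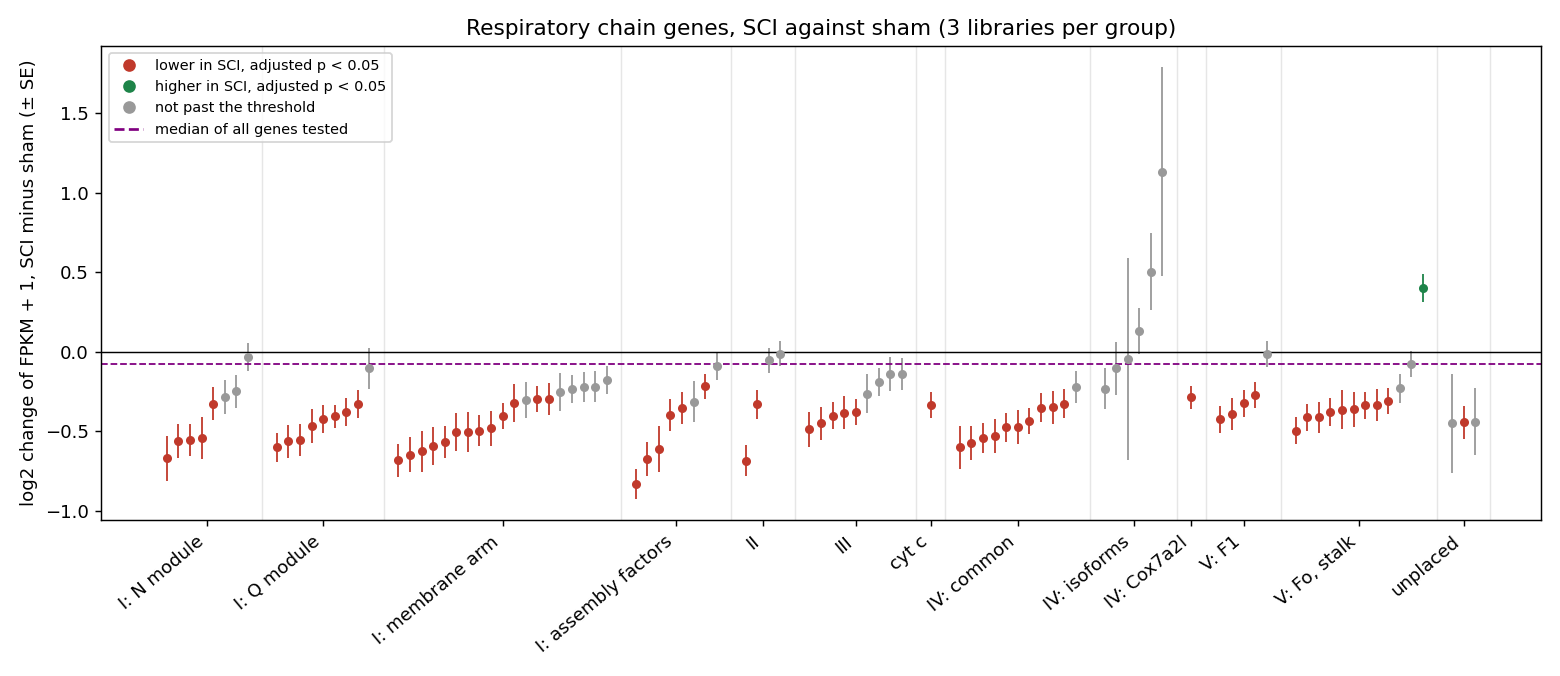
Log2 change of FPKM + 1 (SCI minus sham) with its standard error for the 96 tested genes, grouped along the horizontal axis by complex and role; red and green points passed adjusted p under 0.05 and the dashed line is the median of all genes tested, −0.08. Red points occur in all 5 complexes, beside points that did not pass, and Atp5g2 in complex V is the 1 green point. No tested isoform of complex IV passed, and the errors are widest for the isoforms Cox6a2 and Cox8b.

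The plot of log2 changes by role shows that the fall ran through all 5 complexes and was not limited to one module. Over all members it was not carried by a few genes. In complex II, Sdha and Sdhb were at 62.3% and 79.5% of their sham means, but Sdhc and Sdhd at 96.4% and 99.1%. The plot of summed FPKM shows the fall in the summed level of each complex. Complex I summed to 3307, 2801 and 3445 FPKM in the SCI libraries and 4302, 4204 and 4080 FPKM in the sham libraries (SCI mean 75.9% of sham). Complex IV reached 75.7% of its sham mean, complex II 77.5%, complex V 79.0%, cytochrome c 79.4% and complex III 80.0%. The SCI and sham libraries did not overlap in any of the 5 sums.

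**Figure D2:**
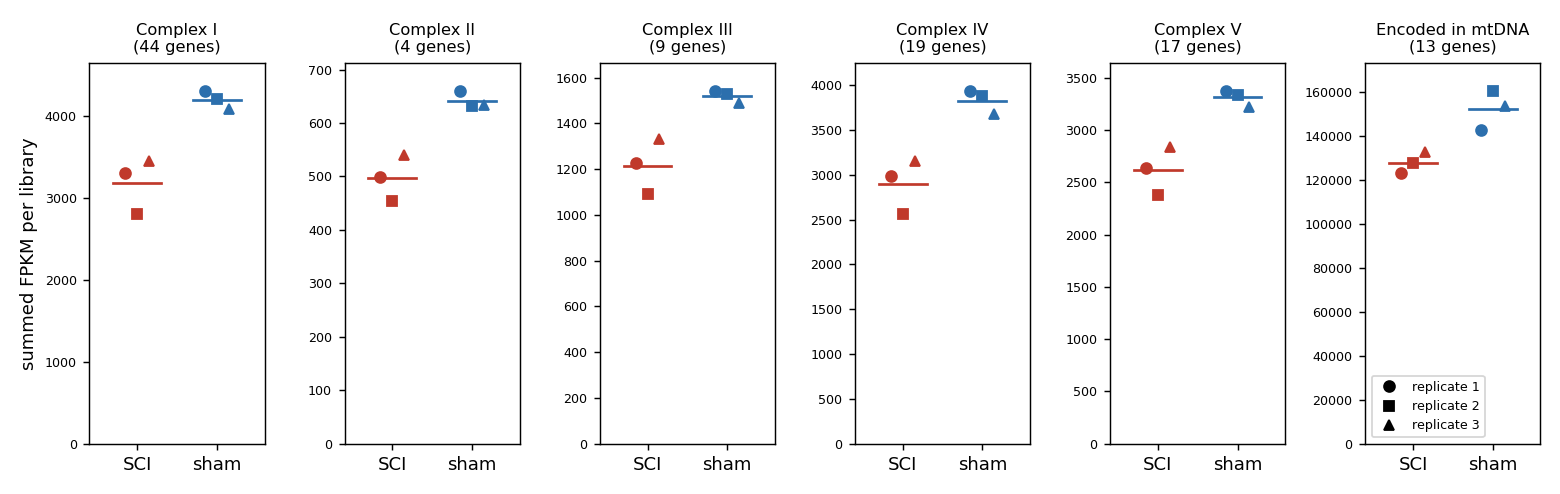
Summed FPKM per library (vertical axes from 0, each complex on its own scale) for the nuclear genes of complexes I to V and for the 13 subunits encoded in mitochondrial DNA, with SCI left of sham and a line at each group's mean. In every panel the 3 SCI libraries lie below the 3 sham libraries, and SCI replicate 2 (square) is the lowest in the panels of nuclear genes.

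In complex I, the NADH dehydrogenase, 32 of 44 genes were lower, none was higher and the median log2 change was −0.41. The N module, which takes electrons from NADH, had 5 of 8 genes lower with a median of −0.43. Ndufs1, its largest iron-sulfur subunit, had 35.4, 29.8 and 38.3 FPKM in SCI replicates 1, 2 and 3, against 48.9, 52.4 and 51.4 FPKM in sham replicates 1, 2 and 3. Ndufv1, the flavoprotein that binds NADH, had 104, 84.5 and 109 FPKM in SCI replicates 1, 2 and 3, against 151, 147 and 141 FPKM in sham replicates 1, 2 and 3. Both genes were lower in every SCI library than in any sham library. Their log2 changes were −0.55 (SE 0.10, adjusted p = 0.00317) for Ndufs1 and −0.56 (SE 0.11, adjusted p = 0.00354) for Ndufv1. Ndufa2, an accessory subunit of the same module, averaged 153 ± 4.69 FPKM in SCI and 157 ± 15.3 FPKM in sham cord (SD, n = 3 each), and its groups overlapped (log2 change −0.03, adjusted p = 0.78).

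Of the Q module, where ubiquinone is reduced, 8 of 9 genes were lower with a median of −0.42. Ndufa7, at −0.10 (adjusted p = 0.508), was the one Q module gene that missed the threshold.

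In the membrane arm, which holds the proton pumps, 13 of 19 accessory subunits were lower with a median of −0.40. Ndufb10, an accessory subunit of this arm, had 129.6, 116 and 149 FPKM in SCI replicates 1, 2 and 3, against 219, 207 and 207 FPKM in sham replicates 1, 2 and 3. The fall was large against the spread within each group, −0.68 (SE 0.10, adjusted p = 0.00127), and its SCI mean was 62.4% of the sham mean. Ndufb9, another accessory subunit of the arm, was among the nuclear-encoded complex I transcripts of highest mean FPKM. Its FPKM were 179, 157 and 174 in SCI replicates 1 to 3, against 216, 213 and 198 in sham replicates 1 to 3. Its libraries did not overlap either, at −0.30 (SE 0.08, adjusted p = 0.0167), and the call was lost without sham replicate 1 (adjusted p = 0.0617) or sham replicate 2 (adjusted p = 0.0599). Ndufb7, Ndufa1, Ndufb11, Ndufa8, Ndufb6 and Ndufc1 did not pass, with log2 changes of −0.18, −0.22, −0.22, −0.23, −0.25 and −0.30.

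The 8 complex I assembly factors, which help to build the complex without being part of it, had sham means of 11.6 to 39.1 FPKM, with a median of 23.0 FPKM, beside 20.4 to 242 FPKM and a median of 105 FPKM in the 36 subunits. Of the 8 factors, 6 were lower in SCI. Ndufaf2 had 13.9, 11.5 and 12.6 FPKM in SCI replicates 1, 2 and 3, against 24.3, 23.6 and 22.0 FPKM in sham replicates 1, 2 and 3. This was the largest fall of the 96 members, −0.83 (SE 0.09, adjusted p = 0.000381), and every SCI library lay far below every sham library. Smim15, which overlaps Ndufaf2 on the opposite strand, averaged 56.0 FPKM, more than Ndufaf2 itself, so the Ndufaf2 values are uncertain. Ndufaf5, with no such neighbour, had 25.6, 20.8 and 26.3 FPKM in the SCI libraries and 36.8, 42.0 and 38.6 FPKM in the sham libraries, and its log2 change was −0.67 (SE 0.11, adjusted p = 0.00177). Ndufaf6 and Ndufaf8 did not pass (log2 changes −0.31 and −0.09).

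Complex II, succinate dehydrogenase, is encoded wholly in the nucleus by 4 genes, of which the 2 catalytic genes were lower and the 2 membrane anchor genes did not pass. Sdha, the flavoprotein that oxidises succinate, had 201, 170.1 and 214 FPKM in SCI replicates 1, 2 and 3, against 319, 310.1 and 309 FPKM in sham replicates 1, 2 and 3. Sdhb, the iron-sulfur subunit, had 90.4, 77.9 and 94.3 FPKM in SCI replicates 1, 2 and 3, against 114, 104 and 111 FPKM in sham replicates 1, 2 and 3. For both genes all SCI libraries lay below all sham libraries, with log2 changes of −0.69 (SE 0.10, adjusted p = 0.00108) for Sdha and −0.33 (SE 0.09, adjusted p = 0.0175) for Sdhb. The Sdhb call was lost without sham replicate 1 (adjusted p = 0.0636) or sham replicate 3 (adjusted p = 0.0599).

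Sdhc, a membrane anchor that helps to bind haem and ubiquinone, had 63.5, 63.0 and 71.6 FPKM in SCI replicates 1, 2 and 3, against 69.2, 66.8 and 69.5 FPKM in sham replicates 1, 2 and 3. Sdhd, the other anchor, had 144, 143 and 160.4 FPKM in SCI replicates 1, 2 and 3, against 157, 151 and 143 FPKM in sham replicates 1, 2 and 3. The groups overlapped in both anchors, and the log2 changes were −0.05 (SE 0.08, adjusted p = 0.573) for Sdhc and −0.01 (SE 0.08, adjusted p = 0.894) for Sdhd. The sign of the Sdhc change turned under median-ratio scaling (0.04), and that of Sdhd under 2 scalings and 3 of the 6 fits that leave out 1 library, so neither anchor has a direction here. The ratio of Sdha to Sdhd FPKM was 139%, 119% and 133% in the SCI libraries, against 203%, 205% and 216% in the sham libraries. No SCI library reached the lowest sham ratio (log2 ratio −0.68; exact two-sided permutation p = 0.1, the smallest that 3 against 3 libraries allow). This pair was chosen after its values were seen.

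Promoters of Sdha and Sdhd are shown because Sdha was lower in SCI and Sdhd, of the same complex, did not pass. They are from RefSeq (GRCm38.p6), 250 bases before to 50 bases after the start site, 5′ to 3′ on the minus strand where both genes lie, at chr13:74350191-74350490 for Sdha and chr9:50603800-50604099 for Sdhd. Capitals mark matches, on either strand, to the NRF1 motif with the sixth of its bases left free.
Sdha: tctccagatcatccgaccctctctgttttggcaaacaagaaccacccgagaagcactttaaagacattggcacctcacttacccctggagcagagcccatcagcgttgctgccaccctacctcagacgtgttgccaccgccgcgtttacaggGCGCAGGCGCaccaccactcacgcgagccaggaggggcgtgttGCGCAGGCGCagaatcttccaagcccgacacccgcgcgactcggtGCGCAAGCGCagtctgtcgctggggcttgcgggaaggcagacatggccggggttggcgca
Sdhd: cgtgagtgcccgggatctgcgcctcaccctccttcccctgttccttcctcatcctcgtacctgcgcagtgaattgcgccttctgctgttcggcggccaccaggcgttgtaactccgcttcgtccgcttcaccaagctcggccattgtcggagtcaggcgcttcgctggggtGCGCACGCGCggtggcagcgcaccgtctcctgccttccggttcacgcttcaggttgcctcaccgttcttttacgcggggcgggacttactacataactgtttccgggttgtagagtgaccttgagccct
Sdha holds 3 such matches, at −98, −55 and −10 from the start site, and Sdhd holds 1, at −79. Both promoters carry the motif. On GRCm38, as the files list them, Sdha lies on chromosome 13 from 74322254 to 74350280 and Sdhd on chromosome 9 from 50596357 to 50603812.

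Nuclear respiratory factor 1 (NRF1), ETS-family factors such as GABP, and YY1 are known regulators of respiratory chain genes. RefSeq promoters of 300 bases were found for 77 of the 98 members and for 27025 genes in all, and were searched on both strands. The full NRF1 palindrome, shown in capitals for Atp5g2 further on, was found in 7 member promoters (9.09%), against 1.07% of all promoters. The looser NRF1 motif with the free base, which includes it, was found in 19 (24.7%), against 5.19%. The YY1 motif was found in 5 (6.49%), against 0.755%, and the ETS motif CCGGAAGT in 5 (6.49%), against 4.31%. A match of letters is a description and not a binding site. Among the factors, Nrf1 had 4.63, 5.19 and 4.57 FPKM in the SCI libraries and 3.53, 3.45 and 3.93 FPKM in the sham libraries, and it was higher in SCI, 0.32 (SE 0.11, adjusted p = 0.033).

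In complex III, cytochrome bc1, 5 of 9 genes were lower and none higher, with a median log2 change of −0.38. Cyc1, the cytochrome c1 subunit, had 119.8, 113 and 133 FPKM in SCI replicates 1, 2 and 3, against 159, 156 and 160.0 FPKM in sham replicates 1, 2 and 3. Uqcrfs1, the Rieske iron-sulfur protein, had 139.7, 131 and 165 FPKM in SCI replicates 1, 2 and 3, against 185, 205 and 177 FPKM in sham replicates 1, 2 and 3. Neither gene's groups overlapped, and the changes were −0.38 (SE 0.08, adjusted p = 0.00579) for Cyc1 and −0.38 (SE 0.11, adjusted p = 0.0172) for Uqcrfs1. Without SCI replicate 1 or sham replicate 2 the adjusted p of Uqcrfs1 was 0.0552 and 0.0648.

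The 2 core proteins that face the matrix had the largest falls of complex III. Uqcrc2 had 148, 121 and 159 FPKM in SCI replicates 1, 2 and 3, against 195, 199 and 203 FPKM in sham replicates 1, 2 and 3, and Uqcrc1 had 108, 87.2 and 109 FPKM in SCI replicates 1, 2 and 3, against 145, 138 and 132 FPKM in sham replicates 1, 2 and 3. All SCI values were below all sham values in both, at −0.49 (SE 0.11, adjusted p = 0.00694) for Uqcrc2 and −0.45 (SE 0.10, adjusted p = 0.00808) for Uqcrc1. Uqcrh, the hinge protein, was the most abundant nuclear-encoded transcript of the complex. Its FPKM were 194, 186 and 218 in SCI replicates 1 to 3, against 255, 272 and 262 in sham replicates 1 to 3. It was lower without overlap (−0.40 (SE 0.08, adjusted p = 0.00548)), with a neighbour on the opposite strand, Gm12854, at 12.4 FPKM.

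The other 4 subunits of complex III did not pass. Uqcr10, a small membrane subunit, had 215, 182 and 216 FPKM in SCI replicates 1, 2 and 3, against 238, 228 and 231 FPKM in sham replicates 1, 2 and 3. The libraries did not overlap, but the change was −0.19 (SE 0.09, adjusted p = 0.101). It passed under quantile normalization (adjusted p = 0.022) and after rescaling without mitochondrial and haemoglobin genes (adjusted p = 0.0417). Uqcrb, Uqcrq and Uqcr11 had log2 changes of −0.14, −0.14 and −0.26.

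Cytochrome c carries electrons from complex III to complex IV, and when it leaves the mitochondrion it is a trigger of apoptosis. Its somatic gene Cycs had 76.1, 74.2 and 87.4 FPKM in SCI replicates 1, 2 and 3, against 101, 99.1 and 99.5 FPKM in sham replicates 1, 2 and 3. Every SCI library was below every sham library, −0.33 (SE 0.08, adjusted p = 0.011). Cycs has 4 near-identical copies in the tables, of which Gm10053 had 56.3, 54.1 and 55.1 FPKM in the SCI libraries and 76.8, 78.7 and 81.0 FPKM in the sham libraries. With the FPKM of all copies added the log2 change was −0.40 (adjusted p = 0.00386), so the call held with the copies included.

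In complex IV, cytochrome c oxidase, nearly all common subunits were lower and no tissue isoform passed the test. Of the 11 common subunits, 10 were lower, with a median log2 change of −0.47. Cox4i1 is the largest nuclear-encoded subunit and had the highest level among the nuclear genes of complex IV. Its FPKM were 457, 399 and 486 in SCI replicates 1 to 3, against 692, 653 and 588 in sham replicates 1 to 3. The SCI values were all below the sham values, −0.53 (SE 0.11, adjusted p = 0.00462), although Emc8 overlaps the gene on the opposite strand at 25.7 FPKM. Ndufa4, a subunit once counted in complex I and now placed in complex IV, had 229.6, 179 and 257 FPKM in SCI replicates 1, 2 and 3, against 325, 354 and 322 FPKM in sham replicates 1, 2 and 3. Cox5a, a matrix-side subunit, had 94.9, 81.4 and 108 FPKM in SCI replicates 1, 2 and 3, against 138, 145 and 139 FPKM in sham replicates 1, 2 and 3. Both were lower with no overlap, at −0.60 (SE 0.13, adjusted p = 0.00733) for Ndufa4 and −0.57 (SE 0.11, adjusted p = 0.00331) for Cox5a.

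Cox8a, a small membrane subunit, had 451, 381 and 465 FPKM in SCI replicates 1, 2 and 3, against 585, 537 and 526 FPKM in sham replicates 1, 2 and 3. It was lower at −0.35 (SE 0.10, adjusted p = 0.0209), but the call was lost when low genes were not filtered out (adjusted p = 0.059), without sham replicate 1 (adjusted p = 0.0723) and without sham replicate 2 (adjusted p = 0.0521). Cox6a1 was the common subunit that did not pass (−0.22, adjusted p = 0.0936), with all SCI values below all sham values. Cox7a2l is a factor known from supercomplexes of complexes III and IV. It averaged 176 ± 6.29 FPKM in SCI and 215 ± 11.3 FPKM in sham cord (SD, n = 3 each). Its log2 change in limma was −0.29 (SE 0.07, adjusted p = 0.0131).

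None of the 6 tested isoforms of complex IV that replace a common subunit in particular tissues or conditions passed the test, and their median log2 change was 0.04. Cox4i2, known from lung and from cells at low oxygen, had 3.32, 2.77 and 3.14 FPKM in SCI replicates 1, 2 and 3, against 3.77, 4.38 and 3.25 FPKM in sham replicates 1, 2 and 3. Ndufa4l2, a paralog of Ndufa4 known to be induced at low oxygen, had 9.62, 5.10 and 5.34 FPKM in SCI replicates 1, 2 and 3, against 3.86, 5.54 and 3.52 FPKM in sham replicates 1, 2 and 3. The groups overlapped in both, and the changes were −0.23 (SE 0.13, adjusted p = 0.164) for Cox4i2 and 0.51 (SE 0.24, adjusted p = 0.112) for Ndufa4l2. Cox4i2 passed under quantile normalization (log2 change −0.36, adjusted p = 0.048). Set against its common partner, Ndufa4l2 was 4.19%, 2.84% and 2.07% of Ndufa4 FPKM in the SCI libraries, against 1.19%, 1.56% and 1.09% in the sham libraries, so every SCI ratio was above every sham ratio (log2 ratio 1.20; exact two-sided permutation p = 0.1, adjusted over 8 ratios 0.267).

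The isoforms known from heart and skeletal muscle varied with single libraries. Cox6a2 had 2.57, 0.770 and 12.4 FPKM in SCI replicates 1, 2 and 3, against 0.680, 0.920 and 1.49 FPKM in sham replicates 1, 2 and 3, and Cox8b had 0.270, 0.290 and 6.24 FPKM in SCI replicates 1, 2 and 3, against 1.34, 1.12 and 1.64 FPKM in sham replicates 1, 2 and 3. SCI replicate 3 was far above the other 5 libraries in both genes, the groups overlapped, and neither passed (1.13 (SE 0.66, adjusted p = 0.177) for Cox6a2, −0.05 (SE 0.63, adjusted p = 0.953) for Cox8b). Without SCI replicate 2, Cox6a2 passed as higher (log2 change 1.79, adjusted p = 0.0291). Without SCI replicate 3, Cox8b passed as lower (−0.88, adjusted p = 0.00802).

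Muscle markers moved with these 2 genes. The 12 striated muscle markers summed to 53.6, 14.3 and 564 FPKM in SCI replicates 1, 2 and 3, against 39.9, 24.0 and 142 FPKM in sham replicates 1, 2 and 3, and none of the 12 was at 0 in every library. Of the 9 that were tested, none passed in either direction in limma. Their part in the Cox6a2 and Cox8b values was not tested. Cox7a1, also a heart and muscle isoform, had 7.29, 10.50 and 10.9 FPKM in SCI replicates 1, 2 and 3, against 9.86, 8.99 and 12.0 FPKM in sham replicates 1, 2 and 3, without the excess in SCI replicate 3. Cox6b2, known from testis, had 4.98, 6.52 and 6.13 FPKM in SCI replicates 1, 2 and 3, against 5.26, 4.39 and 6.22 FPKM in sham replicates 1, 2 and 3. Neither differed between groups beyond the spread of the libraries, at −0.10 (SE 0.17, adjusted p = 0.622) for Cox7a1 and 0.13 (SE 0.15, adjusted p = 0.462) for Cox6b2. Cox7b2, another testis isoform, stayed at 0.39 to 0.99 FPKM and was not tested.

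**Figure D3:**
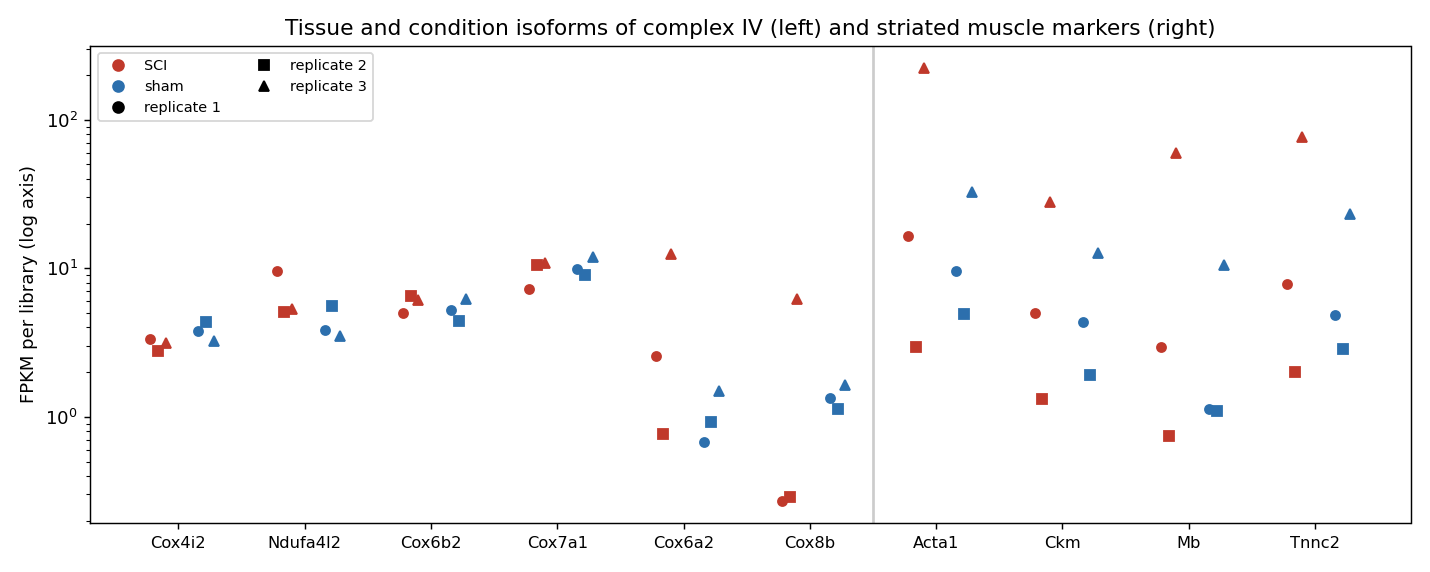
FPKM per library on a log axis for the 6 tested isoforms of complex IV (left of the grey line) and 4 striated muscle markers (right), SCI in red left of sham in blue, with a marker shape for each replicate number. Cox6a2 and Cox8b are highest in SCI replicate 3 (12.4 and 6.24 FPKM), as are Acta1, Ckm, Mb and Tnnc2, while Cox4i2, Cox6b2 and Cox7a1 show no such excess.

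The plot of isoform levels sets these genes beside Acta1, which had 16.4, 2.94 and 224 FPKM in the SCI libraries and 9.58, 4.94 and 32.6 FPKM in the sham libraries. Of 8 ratios of an isoform to its partner that were tested, those of Ndufa4l2 to Ndufa4 and of Atp5g2 to Atp5g3 separated the groups, each at the smallest p allowed, and the other 6 had exact permutation p-values of 0.2 to 1.

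In complex V, ATP synthase, 13 of 17 genes were lower and 1 was higher, with a median log2 change of −0.34. The catalytic F1 head had 4 of 5 genes lower. Atp5b, its catalytic beta subunit and the most abundant transcript of all 98 members per length, had 527, 489 and 567 FPKM in SCI replicates 1, 2 and 3, against 715, 717 and 691 FPKM in sham replicates 1, 2 and 3. Atp5a1, the alpha subunit, had 498, 433 and 538 FPKM in SCI replicates 1, 2 and 3, against 672, 630.1 and 616 FPKM in sham replicates 1, 2 and 3. In both, all SCI libraries were below all sham libraries, at −0.42 (SE 0.08, adjusted p = 0.00457) for Atp5b and −0.39 (SE 0.10, adjusted p = 0.0134) for Atp5a1. Atp5e, the small epsilon subunit of the stalk of F1, averaged 76.6 ± 5.94 FPKM in SCI and 77.2 ± 3.52 FPKM in sham cord (SD, n = 3 each), a log2 change of −0.01 (adjusted p = 0.903).

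Among the genes of the membrane-bound Fo part and the stalks, 9 of 12 were lower. Atp5h, subunit d of the peripheral stalk, had 209, 185 and 220.3 FPKM in SCI replicates 1, 2 and 3, against 292, 292 and 281 FPKM in sham replicates 1, 2 and 3. By the values of the genes alone, it had the largest fall of complex V, −0.50 (SE 0.09, adjusted p = 0.00244), with no overlap between groups. With its 3 near-identical copies added, the log2 change of Atp5h in limma was −0.46 (adjusted p = 0.00514). With copies added in the same way, Atp5md and Atp5g1 fell more (−0.50 and −0.49). Atp5l, subunit g, did not pass (−0.08), and neither did Atp5g3 (−0.23).

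The 3 genes of subunit c went in different directions. Subunit c forms the rotating ring of Fo, and Atp5g1, Atp5g2 and Atp5g3 encode the same mature protein with different import sequences. Atp5g2 had 101, 95.6 and 102 FPKM in SCI replicates 1, 2 and 3, against 83.1, 69.8 and 72.8 FPKM in sham replicates 1, 2 and 3. Every SCI library was above every sham library, and at 0.40 (SE 0.09, adjusted p = 0.00598) it was the one respiratory chain gene called higher. Atp5g1 had 33.3, 31.0 and 42.2 FPKM in SCI replicates 1, 2 and 3, against 45.3, 42.9 and 48.7 FPKM in sham replicates 1, 2 and 3, and Atp5g3 had 184, 175 and 214 FPKM in SCI replicates 1, 2 and 3, against 224, 219 and 227 FPKM in sham replicates 1, 2 and 3. Their SCI values were all below their sham values, at −0.36 (SE 0.12, adjusted p = 0.0365) for Atp5g1 and −0.23 (SE 0.09, adjusted p = 0.0645) for Atp5g3.

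Atp5g2 made up 31.7%, 31.7% and 28.4% of the summed FPKM of the 3 genes in the SCI libraries, against 23.6%, 21.0% and 20.9% in the sham libraries. Its ratio to Atp5g3 was 54.9%, 54.7% and 47.6% in SCI and 37.2%, 31.8% and 32.0% in sham libraries, with no overlap (log2 ratio 0.64; exact two-sided permutation p = 0.1, adjusted over 8 ratios 0.267). The sum of the 3 genes was 94.7% of the sham mean, nearer to sham than the 79.0% of complex V. The call of Atp5g2 held in each of the alternatives that were run, with adjusted p between 0.0012 and 0.0286.

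Near-identical copies of these genes are listed with FPKM of their own, but FPKM do not tell reads of a copy from reads of the gene. Gm10175 and Gm10231, each 100% identical to an Atp5g2 transcript over the compared length, were also higher in SCI. Gm10175 had 52.1, 48.5 and 49.7 FPKM in the SCI libraries and 39.0, 30.9 and 30.8 FPKM in the sham libraries, and Gm10231 had 63.2, 54.3 and 58.2 FPKM in the SCI libraries and 44.4, 34.6 and 35.8 FPKM in the sham libraries. With the copies added to Atp5g2, the log2 change was 0.50 (SE 0.10, adjusted p = 0.00387), and its share of the 3 genes was 39.9%, 41.5% and 37.8% in SCI and 27.6%, 24.5% and 28.1% in sham libraries. Gm10039, a copy of Atp5g1, had 108, 74.2 and 89.3 FPKM in the SCI libraries and 168, 155 and 81.6 FPKM in the sham libraries, more than Atp5g1 itself. With it added, Atp5g1 no longer passed (log2 change −0.49, adjusted p = 0.0669).

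Promoters of Atp5g2 and Atp5g1 are shown because the first was higher and the second lower in SCI. They are from RefSeq (GRCm38.p6) and cover the same window around the start site as above, 5′ to 3′ on the minus strand, at chr15:102670998-102671297 for Atp5g2 and chr11:96075582-96075881 for Atp5g1. Capitals mark the NRF1 motif. The files list Atp5g2 on chromosome 15 from 102662864 to 102672352 and Atp5g1 on chromosome 11 from 96068852 to 96075670 (GRCm38), so the RefSeq start site of Atp5g2 lies within the deposited gene model.
Atp5g2: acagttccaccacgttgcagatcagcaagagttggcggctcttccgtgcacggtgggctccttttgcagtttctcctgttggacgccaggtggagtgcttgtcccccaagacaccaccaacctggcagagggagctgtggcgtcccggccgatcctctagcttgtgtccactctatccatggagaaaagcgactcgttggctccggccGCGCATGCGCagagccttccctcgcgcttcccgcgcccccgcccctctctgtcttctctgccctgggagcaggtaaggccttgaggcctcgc
Atp5g1: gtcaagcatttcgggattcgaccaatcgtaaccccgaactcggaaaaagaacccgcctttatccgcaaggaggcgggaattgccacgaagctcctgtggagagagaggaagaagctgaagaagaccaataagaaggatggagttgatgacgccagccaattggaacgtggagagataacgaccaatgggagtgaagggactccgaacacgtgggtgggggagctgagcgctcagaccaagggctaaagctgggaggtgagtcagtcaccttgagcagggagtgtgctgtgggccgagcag
Atp5g2 holds the full NRF1 palindrome at −42 from the start site. Neither form of the motif is in the Atp5g1 window. The other members with the full palindrome were not higher in SCI. Uqcrc1, Ndufa11, Ndufaf4, Ndufaf5 and Atp5k were lower, and Cox6a1 did not pass. Atp5g3, whose promoter lies at chr2:73911277-73911576 on the minus strand, holds a match to the looser motif 12 bases after the start.

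**Figure D4:**
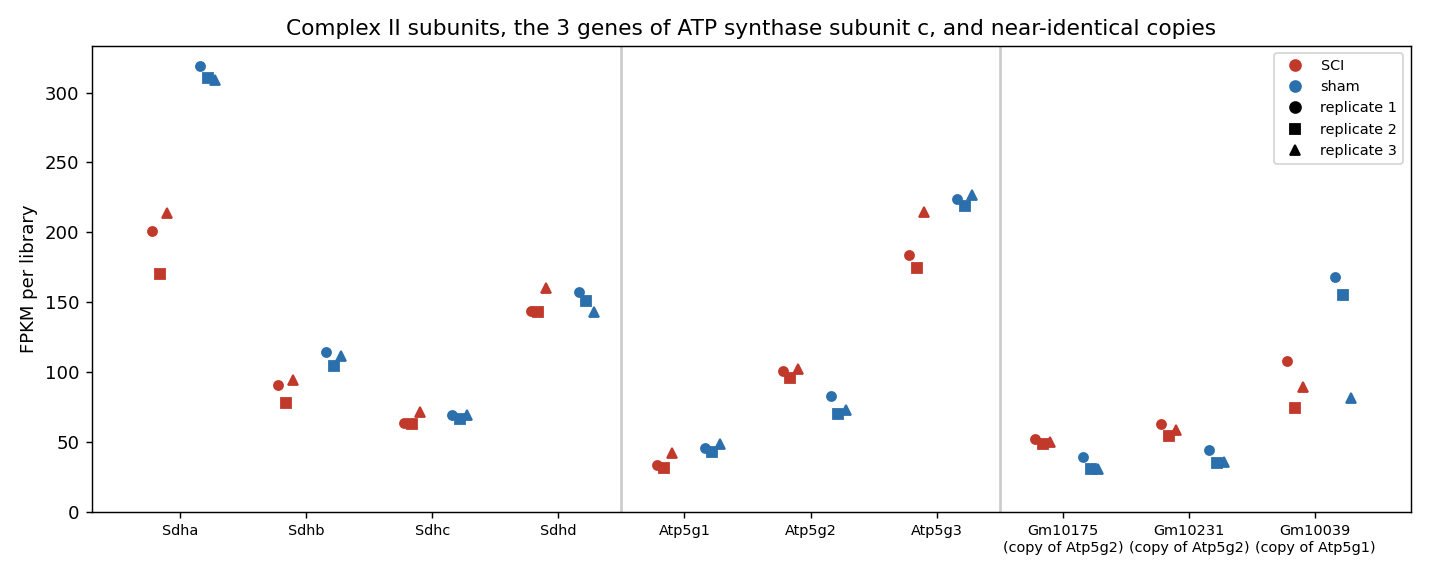
FPKM per library (vertical axis from 0) for the 4 complex II genes, the 3 genes of subunit c and 3 near-identical copies, SCI in red left of sham in blue, with a marker shape for each replicate number. Sdha and Sdhb are lower in all SCI libraries while Sdhc and Sdhd overlap, and Atp5g2 and its copies Gm10175 and Gm10231 are higher in all SCI libraries, while the SCI points of Atp5g1 and Atp5g3 lie below their sham points.

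Copies touched other members too. In the tables, 25 of the 98 members had at least 1 copy in another gene (at least 95% identical over at least 80% of the copy), 46 copies in all. Of these copies, 3 are members themselves (Cox6c2, Ndufb4c and Ndufs6b) and were kept as such, so nothing was added to Ndufb4 and Ndufs6, and the copy Ndufb4c had 55.4% of the mean FPKM of Ndufb4. The other 43 copies belong to 23 members. Of the 28 tested among them, 7 were lower and 2 higher. When these copies were added to their member, 63 members were lower, and the calls of Ndufa12 and Atp5g1 were the 2 that changed. Ndufa12, an N module subunit, had 42.0, 35.3 and 43.0 FPKM in the SCI libraries and 62.6, 54.3 and 77.6 FPKM in the sham libraries (log2 change −0.67, adjusted p = 0.00576), while its copy Ndufa12-ps, left out by the naming rule, had 177, 144 and 182 FPKM in the SCI libraries and 235, 219 and 140.2 FPKM in the sham libraries. With both added the Ndufa12 change was −0.33 (adjusted p = 0.078). Among the 53 tested members with no copy and no overlapping gene at 1 FPKM, 30 were lower (56.6%) with a median log2 change of −0.33, beside 30.8% of all genes tested. Of the unplaced paralogs, Ndufb4c was lower (−0.44, adjusted p = 0.00902), Cox6c2 and Ndufs6b did not pass, and Ndufa11b was listed at 0 in every library.

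The 13 mitochondrially encoded subunits summed to 123290, 127490 and 132840 FPKM in the SCI libraries, against 142520, 160460 and 153800 FPKM in the sham libraries, 84.0% of the sham mean beside 77.1% for the nuclear members. No test of the difference between the 2 sets was made. In limma 3 of the 13 were lower and none was higher, with a median log2 change of −0.24. Over all genes tested, 30.8% were lower. The 3 called lower were the complex I genes mt-Nd2 (−0.48, adjusted p = 0.0148), mt-Nd3 (−0.35, 0.0205) and mt-Nd4 (−0.38, 0.0353). Under the alternatives the number called lower ran between 0 and 7.

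Of 37 assembly factors outside the naming rule, 18 were lower and 1 was higher, with a median log2 change of −0.27. Atpaf1, which assembles the F1 head, had 18.6, 14.4 and 21.6 FPKM in the SCI libraries and 37.8, 43.95 and 37.6 FPKM in the sham libraries (−1.10 (SE 0.15, adjusted p = 0.000817)). Lyrm7 and Uqcc1, both of complex III assembly, and Sdhaf3 of complex II had log2 changes of −0.84, −0.60 and −0.76. Coa5, of complex IV assembly, was the one called higher (0.31, adjusted p = 0.00812).

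Most genes of the citric acid cycle and of the list of pyruvate entry were also lower. Of 14 citric acid cycle genes, 9 were lower and 2 higher (median −0.37), and of 11 genes of pyruvate entry, 8 were lower and none higher (median −0.36). The 8 include 4 components of the pyruvate dehydrogenase complex (Pdha1, Pdhb, Dlat and Pdhx) and the carrier gene Mpc2, but also Pdk2 (−0.96) and Pdk3 (−0.34), kinases that inhibit the complex, and Pdp1 (−0.75), a phosphatase that activates it. Sucla2, the ATP-forming succinyl-CoA synthetase subunit, had 70.1, 53.4 and 74.0 FPKM in the SCI libraries and 117, 128 and 115 FPKM in the sham libraries (−0.87 (SE 0.13, adjusted p = 0.00125)). Its GTP-forming counterpart Suclg2 had 14.3, 18.2 and 16.6 FPKM in the SCI libraries and 12.0, 12.1 and 12.3 FPKM in the sham libraries and was higher (0.40 (SE 0.10, adjusted p = 0.0123)). Idh2, the NADP-dependent mitochondrial isocitrate dehydrogenase, was higher too (0.51 (SE 0.08, adjusted p = 0.00172)), while the NAD-dependent Idh3a, Idh3b and Idh3g were lower (−0.58, −0.66 and −0.49).

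Over all genes tested, 30.8% were lower and 26.7% higher. Of 8 tested genes for carriers and channels of the mitochondrial membranes and for mitochondrial creatine kinase, 3 were lower and 1 higher. Ckmt1, the ubiquitous mitochondrial creatine kinase, had 108, 69.2 and 125 FPKM in the SCI libraries and 296, 305 and 274 FPKM in the sham libraries, the largest fall of that list (−1.57 (SE 0.20, adjusted p = 0.000699)). Ucp2, an uncoupling protein abundant in macrophages, had 44.9, 60.4 and 40.8 FPKM in the SCI libraries and 14.9, 9.64 and 13.3 FPKM in the sham libraries and was higher (1.87 (SE 0.19, adjusted p = 0.000264)). Slc25a4, an ADP/ATP carrier, was lower (−0.61), while the carrier isoform Slc25a5 did not pass (0.07, adjusted p = 0.404).

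Of 13 regulators of mitochondrial biogenesis, 4 were lower and 4 higher, shares near the 30.8% lower and 26.7% higher of all genes tested. Ppargc1a, the coactivator PGC-1 alpha, had 6.96, 6.14 and 7.92 FPKM in the SCI libraries and 13.8, 14.8 and 14.4 FPKM in the sham libraries. It was lower without overlap (−0.94 (SE 0.10, adjusted p = 0.000379)), as were Esrra (−0.58), Tfam, the mitochondrial transcription factor (−0.52), and Ppargc1b (−0.43). Gabpa, the ETS factor of GABP, had 17.6, 20.0 and 16.1 FPKM in the SCI libraries and 10.3, 8.55 and 11.4 FPKM in the sham libraries. It was higher without overlap (0.77 (SE 0.13, adjusted p = 0.00194)), as were Pprc1 (0.76) and Gabpb1 (0.36).

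**Figure D5:**
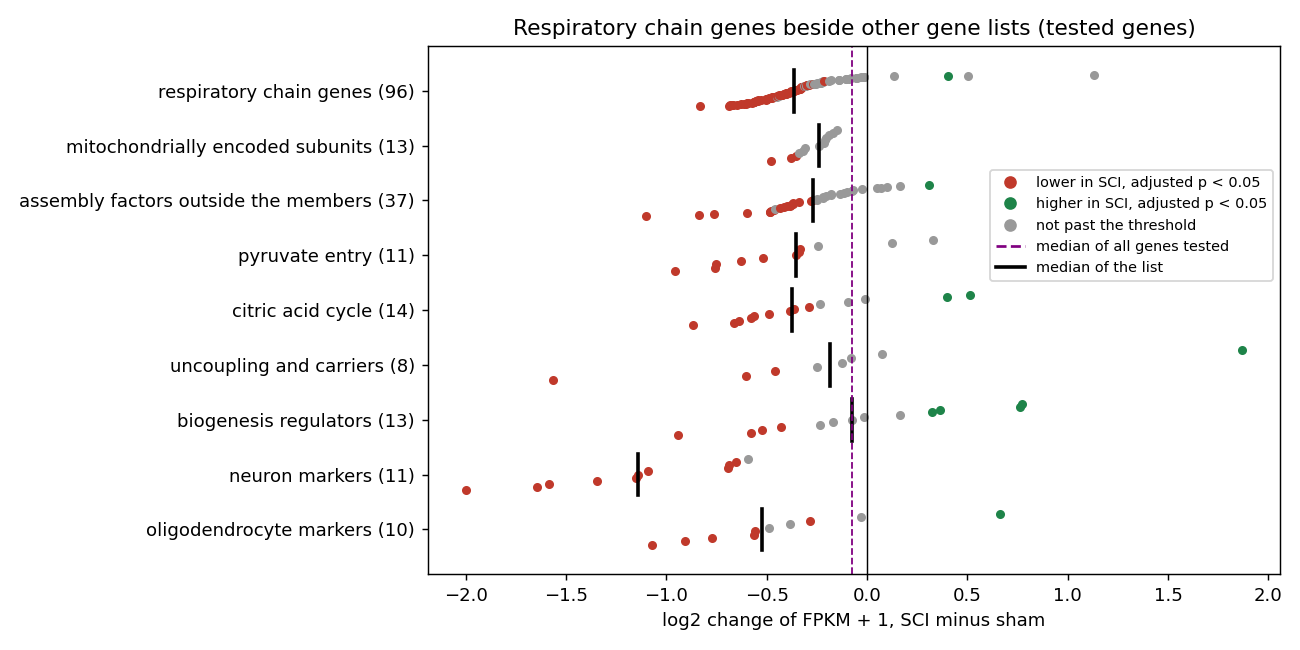
Log2 change of FPKM + 1 (SCI minus sham, horizontal axis) of each tested gene in the respiratory chain set and 8 other lists, with the number tested in brackets; red points were lower and green points higher at adjusted p under 0.05, black bars are list medians and the dashed line is the median of all genes tested. The respiratory chain median is −0.36, between that of the mitochondrially encoded subunits (−0.24) and that of the neuron markers (−1.14).

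The plot of log2 changes by list sets the members beside neuron and oligodendrocyte markers. Markers of the other cells named here are not in the plot. Of 11 neuron markers, 10 were lower (median −1.14), and of 10 oligodendrocyte markers, 6 were lower and 1 higher (median −0.52). Of 9 astrocyte markers, 5 were lower and 4 higher (median −0.38). All 12 microglia and macrophage markers were higher (median 2.37), as were 7 of 10 endothelial and mural markers (median 1.00) and all 9 proliferation markers (median 3.35). No neuron marker was at 0 in any SCI library. Of 5 erythroid markers 3 were higher (median 2.98), and of 4 tested adipocyte markers 1 was higher and 1 lower. Of 5 tested markers of sensory ganglia 1 was lower and none higher. All 9 ganglion markers summed to 64.3, 48.3 and 196 FPKM in SCI replicates 1, 2 and 3. Their sums were 146, 177 and 140 FPKM in the sham libraries. Avil and Scn10a, untested ganglion markers, had 17.3 and 6.60 FPKM in SCI replicate 3, and at most 0.50 FPKM elsewhere. Beside 26.7% higher and 30.8% lower over all genes tested, 6 of 19 glycolysis genes were higher and 6 lower (median −0.14). Of 10 hypoxia response genes, 3 were higher and 2 lower (median 0.05). The part of these shifts in the members' change was not tested.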

How the data were processed

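Per the file headers, the authors deposited FPKM for each gene in each library. Tools named in the submitters' processing notes are StringTie 1.3.4d, HISAT2 2.0.4, cutadapt 1.9, edgeR, DESeq2 and UMI-tools, with the build mm9. What each tool did, and the strand setting, is not given in the sources used here. GENCODE M21 holds 36502 of the gene identifiers, and 32204 of these (88.2%) lie at its GRCm38 coordinates, so positions are given on GRCm38. FPKM hold no counts, so the depth is unknown and no interval from depth is given.

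Libraries were grouped by their titles. All 6 entered limma 3.58.1 (R 4.3.3; trend option on) as log2(FPKM + 1), for the 17435 genes that reached 1 FPKM in 3 or more libraries. P-values were adjusted over all of them with the Benjamini-Hochberg method at 0.05. SE is limma's moderated standard error, and the log2(FPKM + 1) scale understates the change of low genes. Ratios of isoforms were tested with exact two-sided permutations over libraries.

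The members and gene lists were chosen with earlier results of these data known, and lists are described by counts and medians with no test of the list. Named with values in every library were Ndufs1, Sdha, Cox4i1, the other Sdh genes, Cycs, Cyc1, Uqcrfs1, Ndufv1, Atp5a1, Atp5b, the tested tissue isoforms of complex IV and, in complexes I, III, IV and V, the 2 genes past the threshold with the largest fall, the 2 with the largest rise and the 2 of highest mean FPKM, 31 genes in all, of which 1 is not reported here. Other genes named were chosen after their values were seen. Near-identical copies were found with blastn 2.17.0 among GENCODE M21 transcripts (at least 95% identity over at least 80% of the copy and 150 bases). Of the tested members, 27 overlap another gene at 1 FPKM or more.

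Other pseudocounts, filters and scalings, each library left out in turn and a replicate block were run as alternatives. Adding copies to their members, and keeping members without copies or overlaps, were chosen after seeing the data.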

Additional observations from a re-analysis of the deposited data

How the results depend on the processing

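Over pseudocounts of 0.1 and 5, no filter or a filter of 5 FPKM, quantile and median-ratio scaling and rescaling without mitochondrial and haemoglobin genes, 59 to 74 respiratory chain genes were lower and 1 was higher. With 1 library left out, 49 to 70 were lower and 1 to 2 higher (2 without SCI replicate 2), and the number lower was 1 to 2 in complex II, 7 to 12 in complex IV (0 to 1 higher) and 8 to 14 in complex V. The fewest calls in all members came without sham replicate 1 (49) or sham replicate 2 (51). Under median-ratio scaling the median log2 change of the members was −0.27, against −0.36 in the main fit. That of complex II was −0.10, against −0.19. The factor by which this scaling divides a library was 0.906 for SCI replicate 2 and 0.998 to 1.05 for the others.

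The mitochondrially encoded subunits depended most on the setting. Of them 6 were lower with a pseudocount of 5, 7 with a filter of 5 FPKM, 1 under quantile normalization (median −0.14), 0 under median-ratio scaling (median −0.15; summed FPKM 89.6% of sham) or with no filter, and 0 to 3 with 1 library left out (median −0.28 to −0.22). For pyruvate entry 1 gene was higher under median-ratio scaling (0 to 1 with 1 library left out). For the biogenesis regulators 2 were higher under quantile normalization (median −0.18), 2 to 4 with 1 library left out, and the median was 0.0039 under median-ratio scaling. The cause was not tested.

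Signs turned in genes that had not passed. Sdhc was at 0.037 under median-ratio scaling. Sdhd was at 0.0035 under quantile and 0.078 under median-ratio scaling and between −0.066 and 0.018 with 1 library left out. Cox7a1 lay between −0.20 and 0.064 and Cox8b between −0.88 and 0.37 with 1 library left out, and Cox8b was at 0.094 with a pseudocount of 5. The log2 ratio of Cox8b to Cox8a lay between −1.86 and 0.38. Of 462 values of named genes under alternatives, 435 kept direction and call, 10 lost the call, 5 gained one and 12 changed sign.

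The replicate numbers do not pair the libraries: deviations of same-numbered libraries correlated at −0.008, −0.039 and 0.022. With the replicate block 60 genes were lower and 1 higher, and 1 mitochondrially encoded gene was lower.

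Limits are that depth behind FPKM is unknown, that 3 libraries a group cannot give an exact permutation p under 0.1, that reads of near-identical copies and of genes on the opposite strand are not told apart by FPKM, and that whole pieces of cord mix cell types whose shares differed between groups.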
